A study of Brassica napus with 12 samples.

Results

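In rapeseed seedlings held under water for 24 h, 171 genes of the A and C chromosomes had log2 changes of -2 or lower in both the resistant and the susceptible pool of germplasm. They were taken from a table of 109614 genes, of which 96921 carry an identifier that places them on an A or a C chromosome. For each pool the change was the mean of log2(RPKM + 1) over the 3 submerged libraries minus that over the 3 controls. A gene also had to average at least 10 and less than 300 RPKM over the 6 control libraries, a range that held 16898 genes. RPKM is the number of reads divided by the gene's length and by how many reads of the library were mapped. Because these values chose the genes, the depth of the change is given as a description and is not tested.

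The study measured polyadenylated RNA of young seedlings of *Brassica napus* in 4 groups of 3 biological replicates. The groups were the resistant pool as control, the resistant pool after 24 h of full submergence in distilled water, and the susceptible pool in the same 2 states. Each library mixed equal amounts of seedlings of 5 germplasm of a pool, so single germplasm cannot be compared. All seedlings grew for a week on moist paper at 25 °C by day and 22 °C by night with 16 h of light, until the cotyledons were flat and the true leaf had just formed. No transgene or named allele is given for any group.

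Water around a plant slows the exchange of gases and dims the light. Cells that run short of oxygen make less ATP by respiration, and draw on fermentation and stored sugar instead. In Arabidopsis, a relative of rapeseed, transcription factors that stay stable only at low oxygen switch on fermentation genes, while transcripts for growth, cell walls and other costly processes are commonly reduced and many are withheld from ribosomes. *B. napus* carries an A subgenome from *B. rapa* and a C subgenome from *B. oleracea*, so most genes have a close copy on the other subgenome. None of the identifiers matched the 123214 rows of the reference table used here, so the genes have no names or roles in what follows, and the seedling label could not be checked against marker genes. Reads that fit both copies can be split between them or lost, which makes the level of a single copy uncertain.

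The 171 genes made up between 0.937% and 1.22% of the summed RPKM in the 6 control libraries, and between 0.134% and 0.185% in the 6 submerged ones. Their median level was 35.3, 27.9 and 32.1 RPKM in the resistant controls and 3.85, 3.17 and 3.29 RPKM after submergence. In the susceptible pool it was 31.2, 26.2 and 31.1 RPKM in controls and 3.70, 3.77 and 2.55 RPKM after submergence. No submerged library came near a control in this median, and the pools stood close to each other in both states. In a mixture of whole seedlings, fewer cells of a type and less RNA per cell cannot be told apart.

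**Figure D1:**
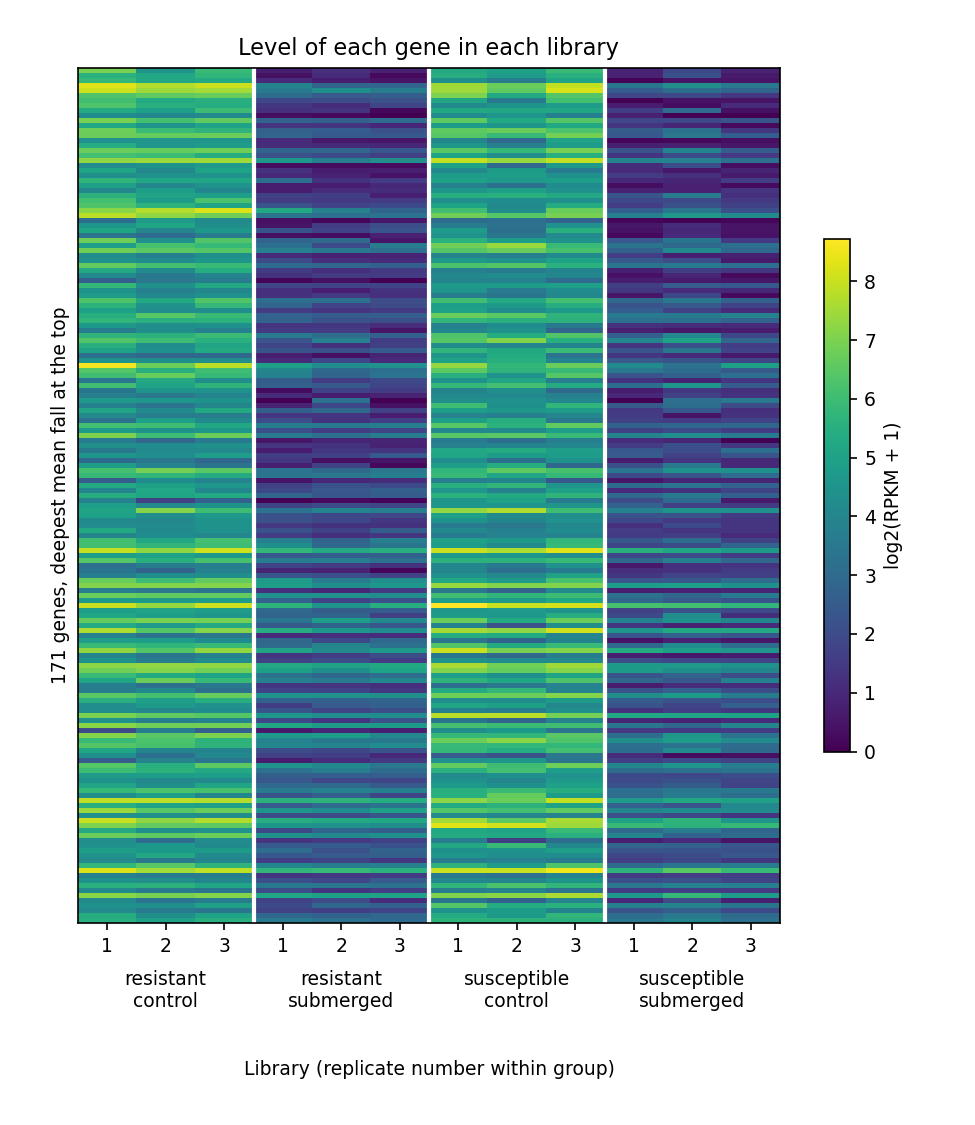
Level of each of the 171 genes, as log2(RPKM + 1) by colour, in the 12 libraries (columns, 3 per group), with the genes ordered by their mean change over the pools. On average over a group, controls are lighter than submerged libraries of the same pool for each gene, and the median over the genes is 35.3 RPKM in the first resistant control and 3.85 RPKM in the first resistant submerged library.

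All 171 genes passed the filter on low values, at least 1 RPKM in at least 3 libraries, which 57391 genes of the table met. Since the rule asked for 10 RPKM in controls, passing says nothing about the genes. In limma's fit across all tested genes, 171 were called lower in the resistant pool and 170 in the susceptible pool at an adjusted p under 0.05. The background was 26.7% and 28.6% of tested genes, and 27.4% and 28.9% of those in the same control range. The rule used these contrasts, so the counts carry no weight of their own. The 3 submerged values lay below the 3 control values for 171 genes in the resistant pool, against 38.3% of tested genes, and for 170 in the susceptible pool, against 34.3%. In both pools this was so for 170 genes, against 24.6% of tested genes. The exception was BnaC03G0060300ZS, at 28.1, 41.5 and 6.31 RPKM in susceptible controls and 3.42, 10.1 and 0.959 RPKM after submergence, named for this count. For 162 genes, all 6 submerged libraries lay below all 6 controls, against 16.3% of tested genes. These counts, too, use the values of the rule.

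The changes ranged from -4.94 to -2.003 in the resistant pool, with a median of -2.55, and from -4.63 to -2.009 in the susceptible pool, with a median of -2.62. Over all tested genes the median change was -0.22 and -0.19. In RPKM, the genes kept a median of 12.7% of their control level in resistant and 12.9% in susceptible seedlings. Changes of -3 or lower in both pools were found for 30 genes, and of -4 or lower in both for 3. At the upper edge, 30 genes lay within 0.1 of the limit in the pool with the weaker change. Just inside, BnaC09G0590700ZS changed by -2.003 and -2.41 and BnaC09G0171300ZS by -2.004 and -2.62 in the resistant and susceptible pools. Just outside, BnaA02G0301100ZS changed by -1.9996 and -2.85 and BnaA08G0282100ZS by -1.998 and -2.13. A further 40 genes of the control range came within 0.1 of meeting the limit, so its edge separates genes that hardly differ.

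**Figure D2:**
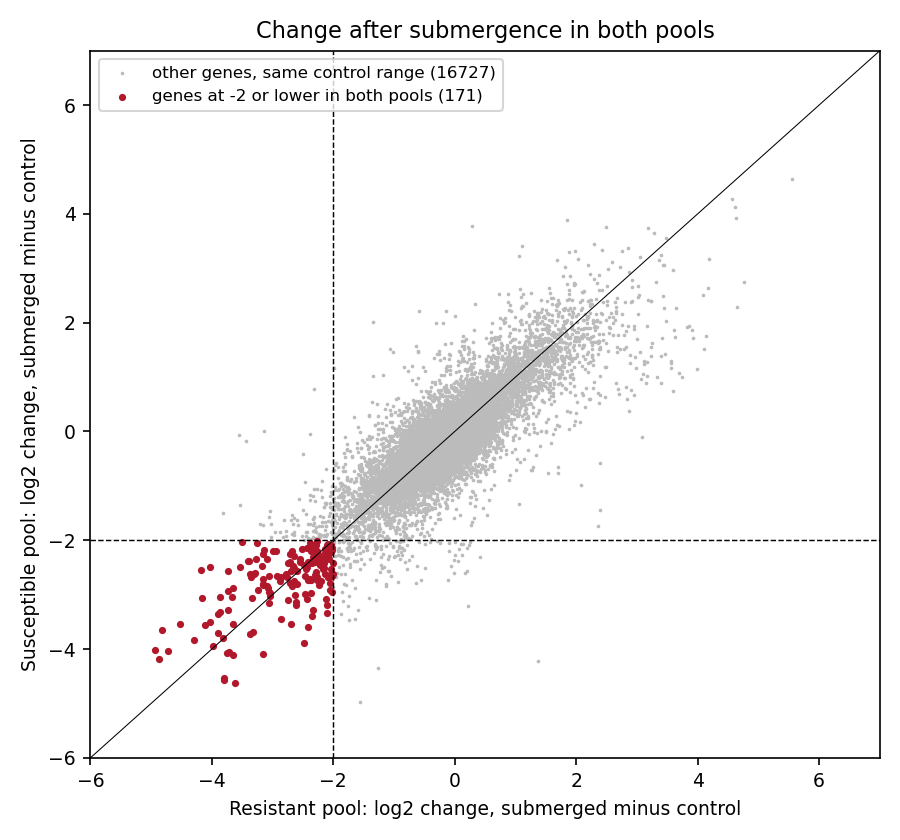
Log2 change after submergence in the resistant pool (x axis) and the susceptible pool (y axis) for the 16898 genes of the control range, with the 171 chosen genes in red, the limits of -2 dashed and equal change as a line. The red points lie on both sides of the line of equal change and stretch to -4.94 in resistant and -4.63 in susceptible seedlings.

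The deepest mean changes belonged to BnaC03G0778100ZS and BnaA02G0105900ZS. BnaC03G0778100ZS stood at 124, 21.8 and 57.8 RPKM in resistant controls and at 0.650, 1.31 and 0.741 RPKM after submergence. In the susceptible pool it stood at 37.5, 31.1 and 59.0 RPKM in controls and at 0.834, 2.69 and 0.841 RPKM after submergence. The controls spread widely in the resistant pool, yet the lowest of them was far above every submerged library, and the level kept was 1.33% and 3.42%. BnaA02G0105900ZS had tighter controls, 45.1, 36.6 and 52.1 RPKM in resistant and 42.1, 26.7 and 45.3 RPKM in susceptible seedlings. After submergence it was at 0.313, 1.07 and 0.161 RPKM in resistant and 0.812, 3.61 and 0.556 RPKM in susceptible seedlings. Its changes were -4.94 and -4.02, and the second susceptible submerged library was the highest of the 6. BnaA03G0427200ZS was the only other gene with changes of -4 or lower in both pools, at -4.72 and -4.03; it is named for that count, after its values were seen.

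At the shallow end were BnaA03G0132000ZS and BnaA10G0218600ZS, with changes of -2.03 and -2.08 and of -2.08 and -2.07. BnaA03G0132000ZS was at 44.2, 30.8 and 42.9 RPKM in resistant controls and 10.9, 8.79 and 6.91 RPKM after submergence, and at 49.5, 48.7 and 45.3 and then 9.74, 14.2 and 8.43 RPKM in the susceptible pool. It kept 22.6% and 22.5% of its control level, and its groups did not overlap in either pool.

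The share of the control level that was kept differed with that level. The pseudocount of 1 understates the change of weak genes, so by construction they had to lose more of their RPKM to reach the limit. The 86 genes that averaged 10 to 30 RPKM in controls kept a median of 12.2% in resistant and 10.6% in susceptible seedlings. The 63 genes of 30 to 100 RPKM kept 13.1% and 14.6%, and the 22 genes of 100 to 300 RPKM kept 19.0% and 17.3%. The chosen genes were 0.723% of the genes on A and C chromosomes in the lowest of these ranges, 1.48% in the middle and 2.99% in the highest.

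The most abundant of the set was BnaC04G0131200ZS, at 263, 163 and 267 RPKM in resistant controls and 423, 256 and 288 RPKM in susceptible controls. After submergence it was at 49.3, 20.6 and 42.7 RPKM in resistant and 72.7, 66.6 and 52.2 RPKM in susceptible seedlings, so the transcript was still plentiful. BnaC05G0252600ZS followed, at 184 to 304 RPKM in resistant and 252 to 375 RPKM in susceptible controls, and at 46.8 to 59.7 and 49.0 to 90.0 RPKM after submergence. At 10 RPKM or more in all 6 submerged libraries were 16 genes of the set. The weakest were BnaC04G0590200ZS, with a control mean of 10.1 RPKM, and BnaA02G0317700ZS, with 10.3 RPKM. BnaA02G0317700ZS was at 5.04, 9.97 and 11.995 RPKM in resistant controls and at 0.107, 0.327 and 0 RPKM after submergence, and went from 14.2, 13.2 and 7.25 to 0.681, 0.559 and 0.472 RPKM in the susceptible pool. It was among 4 genes that stayed under 1 RPKM in all 6 submerged libraries, with BnaA01G0055600ZS, BnaA03G0213800ZS and BnaC08G0443500ZS, named for this count, while 57 were under 1 RPKM in at least 1 of them. No gene of the set was listed at 0 in a control, and 5 were listed at 0 in at least 1 submerged library, which were BnaA02G0317700ZS, BnaA10G0118600ZS, BnaC02G0174800ZS, BnaC06G0389000ZS and BnaC08G0443500ZS.

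Spread between replicates differed strongly among the genes. BnaA09G0575800ZS repeated best, at 27.6, 28.7 and 27.7 RPKM in resistant controls and 5.29, 5.03 and 5.10 RPKM after submergence, and at 16.9, 20.017 and 20.3 and then 2.94, 2.71 and 3.24 RPKM in the susceptible pool. BnaA03G0030700ZS was next, with a pooled within-group SD of 0.16 on the log2 scale against 0.088 for BnaA09G0575800ZS. BnaA10G0118600ZS repeated worst. Its controls were close, 25.2, 23.0 and 21.2 RPKM in resistant and 19.3, 20.5 and 15.9 RPKM in susceptible seedlings, but after submergence it was listed at 0, 8.68 and 0 RPKM in resistant and 0, 8.32 and 10.6 RPKM in susceptible seedlings. It was the gene without a call in the susceptible response, and its place in the set rests on libraries listed at 0. BnaA03G0007200ZS spread mainly in the resistant pool, at 110.5, 20.3 and 80.2 RPKM in controls and 5.96, 7.04 and 0.439 RPKM after submergence. In control libraries alone, the median within-group SD was 0.42 log2 units for the set and 0.21 for the other genes of the same control range. The means of these libraries chose the genes, which can favour genes of wide spread, so the gap is a description.

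**Figure D3:**
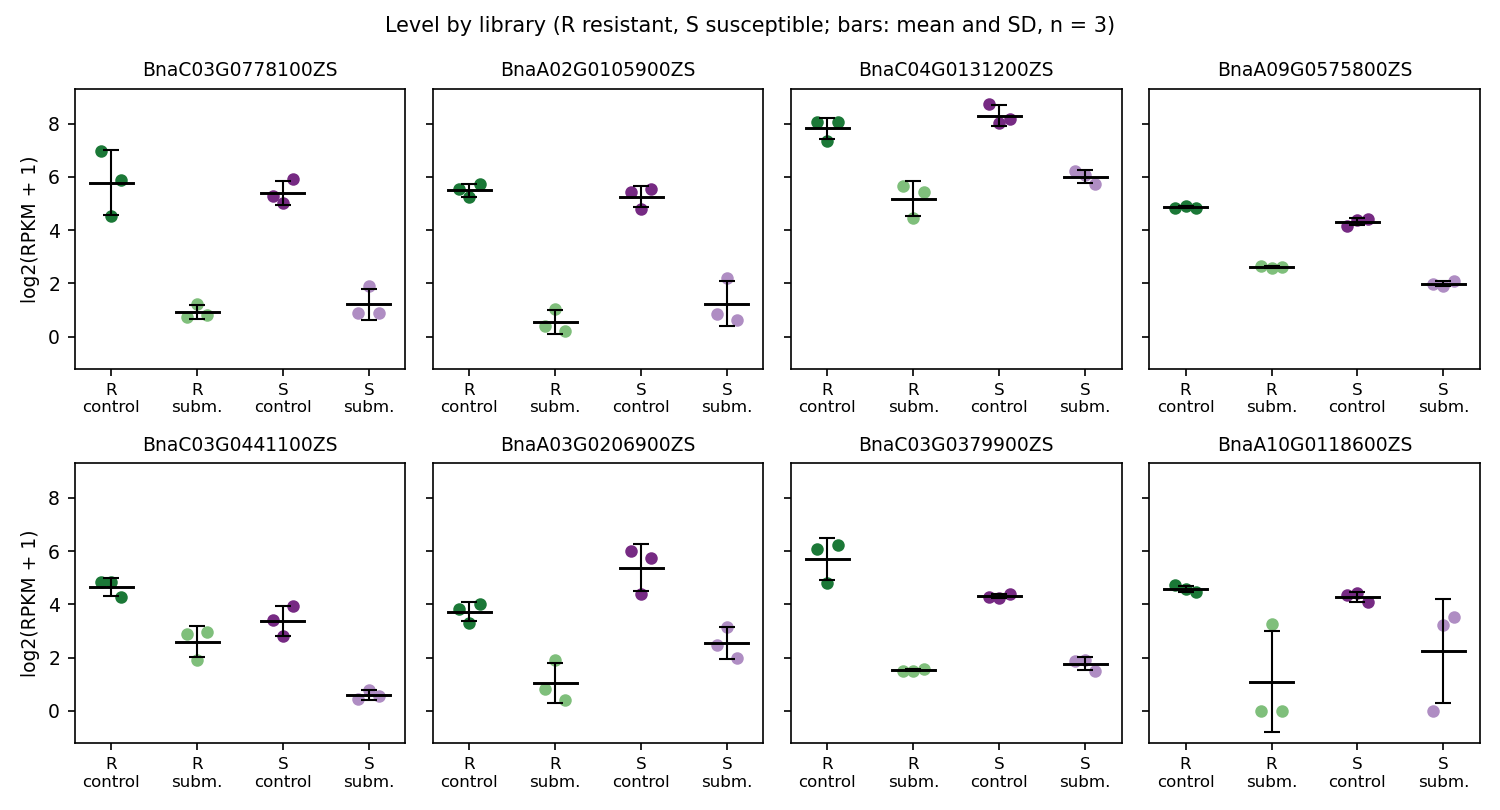
Level of 8 of the genes named in the text, as log2(RPKM + 1), in each library (points), with the mean and SD of each group of 3 libraries (bars). BnaA09G0575800ZS has tight groups, BnaA10G0118600ZS has submerged libraries at 0 beside others near 8 to 11 RPKM, and BnaC03G0441100ZS stands higher in the resistant than in the susceptible pool in both states.

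The pools share no library, so genes chosen on the 6 libraries of a pool can be tested on the 6 libraries of the other. On the resistant pool alone, 288 genes had a change of -2 or lower and a mean of at least 10 and below 300 RPKM in its controls. In the susceptible pool, fitted by limma on its own libraries, 261 of these were called lower and 1 was called higher at an adjusted p under 0.05, and 3 did not pass the filter on low values there. That is 90.6%, against 21.8% of all genes tested there and 20.5% of the other genes of the same range in resistant controls. Their median change in the susceptible pool was -2.20, against -0.16 for the other genes of the range, and 169 of the 288 reached -2 there too, against 0.765% of the others.

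In the opposite direction, 325 genes were chosen on the susceptible pool. In the resistant pool 278 of them were called lower and 0 higher (limma, adjusted p under 0.05), which is 85.5% against 29.2% of all genes tested there and 27.9% of the others in range. Their median change was -2.02 against -0.18, 168 of the 325 reached the limit, and 16 lay above 0. Of the 288 genes 162 belong to the set of 171, and of the 325 genes 163 do, which is 56.2% and 50.2% of these lists. With median ratio scaling the lists shrank to 192 and 221 genes, of which 165 and 187 were called lower in the other pool, 85.9% and 84.6%. The shares of all tested genes and of the others in range were not taken under that scaling, so these percentages have no background beside them.

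**Figure D4:**
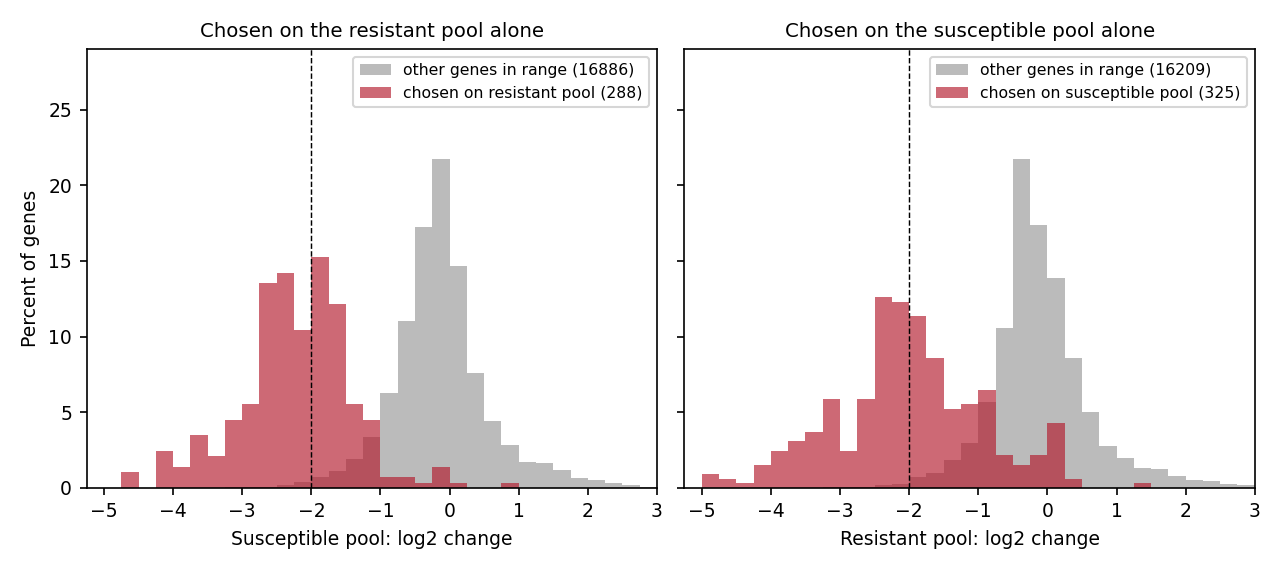
Distribution of the log2 change in the susceptible pool for 288 genes chosen on the resistant pool (left), and in the resistant pool for 325 genes chosen on the susceptible pool (right), in bins of 0.25, with the other genes of the control range in grey. The chosen genes centre on -2.20 and -2.02 and the others on -0.16 and -0.18, and 2 chosen genes in the left and 16 in the right panel lie above 0.

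The same was done within the replicates. The whole rule was applied to 2 of the 3 replicate numbers, and the change was read in the libraries of the number left out. The numbers only name libraries here. Without number 1, 163 genes met the rule, and in the libraries left out their median change was -2.54 in resistant and -2.79 in susceptible seedlings. Without number 2 there were 180 genes, with medians of -2.37 and -1.99. Without number 3 there were 190 genes, with medians of -2.57 and -2.56. Changes of -2 or lower in both pools were found again for 71.8%, 44.4% and 50.5% of these genes, against 0.488%, 0.538% and 0.429% of the other genes of the range. Changes of -1 or lower in both pools were found for 95.1%, 87.2% and 89.5%, and the share of the other genes at this weaker limit was not taken. The lowest of these shares and the weakest susceptible median came when the second libraries were the ones left out.

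Whether the pools differed in the level of these genes was asked with a contrast that the rule did not use, the resistant minus the susceptible mean averaged over both treatments. It is orthogonal to both changes and to the mean control level. As each library mixed the germplasm of a pool, the p-values measure spread between libraries and not between germplasm. The limma fit called 31 of the 171 genes higher in the resistant pool, 18.1% against 21.1% of all tested genes, and 20 lower, 11.7% against 8.93% of tested genes. Among all genes of the same control range the shares were 17.4% and 10.9%. The shares of the set thus lie near those of the table. With median ratio scaling 20 were higher and 23 lower, so that the share of calls above 0 went from 60.8% to 46.5%. The shares over all tested genes were not taken under this scaling, so the shift cannot be assigned to the set.

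**Figure D5:**
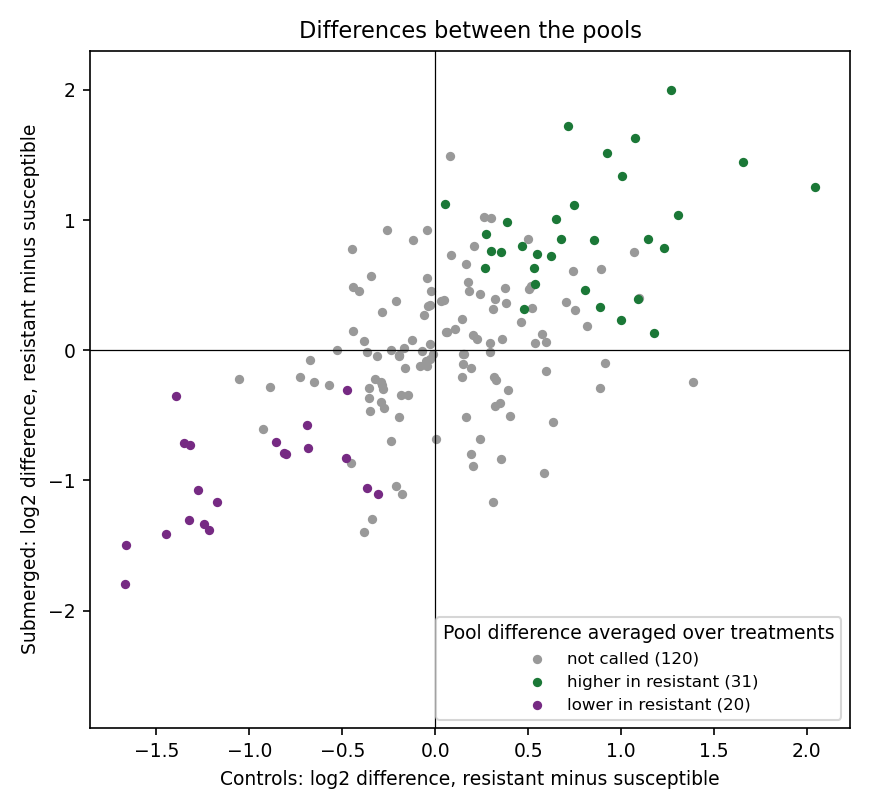
Log2 difference between the pools (resistant minus susceptible) in controls (x axis) and after submergence (y axis) for the 171 genes, coloured by the call of the difference averaged over treatments. The 31 green and 20 purple points lie towards opposite corners, and the 120 genes without a call surround 0. The opposite sides follow from the colouring, as the call is made on the mean of both axes.

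In controls alone, limma called 13 genes above and 12 below 0 for resistant minus susceptible at an adjusted p under 0.05. These calls were 7.60% and 7.02% of the set. Among tested genes the shares were 10.9% and 5.02%, and among those of the same control range 8.49% and 5.95%. After submergence 14 were called above and 11 below 0, 8.19% and 6.43% of the set. The shares were 11.7% and 4.67% among tested genes and 9.83% and 5.57% in the range. Calls in both states were found for 6 genes above 0, 3.51% against 5.05% of tested genes and 3.72% of the range, and for 7 below 0, 4.09% against 1.97% and 2.19%. The limit of -2 in each pool leaves out genes that were low in the controls of a pool, so these contrasts are not free of the rule.

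These counts moved with the libraries used. The shares over all tested genes were not taken with a library left out, so the shifts cannot be assigned to the set. In controls, the genes called above and below 0 numbered 5 and 5 with the first resistant control left out. With the second left out they numbered 12 and 6, and with the third 7 and 3. They numbered 5 and 1, 7 and 6, and 22 and 14 without the first, second and the third susceptible control, and 12 and 7 without either the first or the third resistant submerged library. After submergence, they numbered 10 and 3, 14 and 5, and 8 and 2 without the first, second and the third resistant submerged library. They were 10 and 6 without the first and 15 and 3 without the second susceptible submerged library, and 23 and 13 without the second susceptible control.

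BnaC03G0441100ZS differed most clearly. It was at 28.0, 27.9 and 18.2 RPKM in resistant and 9.65, 6.01 and 14.3 RPKM in susceptible controls, and at 6.45, 2.77 and 6.88 against 0.348, 0.740 and 0.486 RPKM after submergence. The resistant libraries were above the susceptible ones in both states, with no overlap. The averaged log2 difference was 1.63 ± 0.23 (SE; limma adjusted p = 0.000452). After submergence alone it was 2.00 ± 0.32 (SE; limma adjusted p = 0.00272), or 3.07 with a pseudocount of 0.1. The gene kept 21.7% of its level in the resistant but 5.25% in the susceptible pool. BnaC02G0513900ZS had a slightly larger difference on uneven libraries, with 144, 216 and 296 RPKM in resistant and 65.1, 18.6 and 102 RPKM in susceptible controls, and 38.6, 13.3 and 6.02 against 5.12, 9.86 and 3.43 RPKM after submergence. Its submerged groups overlapped. The difference was 1.65 ± 0.48 (SE; limma adjusted p = 0.0232), with adjusted p = 0.0515 without the third resistant control and 0.0527 without the third susceptible submerged library.

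In the other direction, BnaA03G0206900ZS stood at 13.2, 8.94 and 15.2 RPKM in resistant and 63.8, 20.004 and 52.4 RPKM in susceptible controls, and at 0.772, 2.72 and 0.331 against 4.54, 7.97 and 2.94 RPKM after submergence. Every susceptible library was above every resistant library of the same state, and the averaged difference was -1.58 ± 0.33 (SE; limma adjusted p = 0.00501). In controls alone the difference was -1.66 ± 0.47 (SE; limma adjusted p = 0.0347). That call was lost in 8 of 19 alternatives, at adjusted p = 0.0592 to 0.131 without any 1 of the resistant controls or the first or the third susceptible control, 0.0943 with a pseudocount of 0.1, 0.0619 with the replicate number as a block and 0.0537 with no filter. BnaC06G0389000ZS was at 13.2, 2.18 and 5.59 RPKM in resistant and 23.5, 31.6 and 10.96 RPKM in susceptible controls. After submergence it was at 0, 0.153 and 0.0574 against 2.94, 7.38 and 0.548 RPKM. The control groups overlapped and the submerged groups did not, and the averaged difference was -1.73 ± 0.44 (SE; limma adjusted p = 0.0125), or -2.91 with a pseudocount of 0.1.

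Other genes were named for their differences in controls or after submergence alone. BnaA04G0272500ZS was at 39.4, 25.0 and 37.6 RPKM in resistant and 13.3, 3.52 and 19.0 RPKM in susceptible controls, with a log2 difference of 1.66 ± 0.43 (SE; limma adjusted p = 0.0247). The adjusted p was 0.0803 without the first and 0.0738 without the third resistant control, and 0.0813 with only the libraries compared, and the difference was 1.02 without the second susceptible control. BnaA04G0155800ZS was at 34.4, 14.2 and 14.2 against 54.8, 41.3 and 69.2 RPKM in controls and at 3.14, 2.68 and 3.66 against 7.97, 17.7 and 7.03 RPKM after submergence. In both states the pools did not overlap. The log2 difference was -1.45 ± 0.37 in controls (SE; limma adjusted p = 0.0224), with adjusted p = 0.0612 to 0.0805 without the second or the third resistant or the first or the third susceptible control. After submergence it was -1.42 ± 0.37 (SE; limma adjusted p = 0.0255), with adjusted p = 0.0573 to 0.0754 without any 1 of the resistant or without the second susceptible submerged library.

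BnaA07G0269900ZS was at 0.620, 1.69 and 1.57 RPKM in resistant and 4.24, 3.17 and 8.09 RPKM in susceptible submerged libraries, and its difference of -1.38 ± 0.30 (SE; limma adjusted p = 0.0108) kept its call in all 19 alternatives. BnaC02G0174800ZS was at 2.75, 2.94 and 3.47 RPKM against 0, 0.355 and 0.360 RPKM after submergence, a log2 difference of 1.72 ± 0.48 (SE; limma adjusted p = 0.0321), or 3.51 with a pseudocount of 0.1. The adjusted p was 0.0555 to 0.102 without any 1 of the 6 submerged libraries and 0.0543 with no filter.

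The depth of the change itself was close in both pools for most of the genes. It is made of the values that chose them, so the gap is a description. It was deeper in the resistant pool for 83 and in the susceptible pool for 88 genes, with a median gap (resistant minus susceptible) of 0.013 log2 units. For 107 genes the gap was under 0.5 and for 16 it was 1 or more, 10 of them deeper in resistant and 6 in susceptible seedlings. BnaC03G0379900ZS had the largest gap, with changes of -4.18 and -2.54. It was at 66.4, 26.7 and 73.5 RPKM in resistant but 18.6, 18.1 and 19.9 RPKM in susceptible controls, and at 1.84, 1.80 and 1.95 against 2.69, 2.80 and 1.80 RPKM after submergence. The log2 difference between pools was 1.39 ± 0.30 in controls (SE; limma adjusted p = 0.00972) and -0.25 ± 0.30 after submergence (SE; limma adjusted p = 0.58). The gap is made of these differences and the gene was picked for it, so they describe the gap and do not test it. BnaC05G0386700ZS changed by -4.03 and -2.498, from 226, 156 and 113 to 9.34, 8.12 and 8.96 RPKM in the resistant and from 112, 85.7 and 122 to 13.3, 24.7 and 17.2 RPKM in the susceptible pool.

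The change was deeper in the susceptible pool for BnaA02G0137900ZS, at -2.48 and -3.89, and for BnaA04G0051800ZS, at -2.11 and -3.33. BnaA02G0137900ZS was at 35.1, 14.8 and 24.3 against 26.9, 8.30 and 46.1 RPKM in controls, where the pools overlapped, and at 3.81, 2.44 and 4.05 against 0.352, 1.02 and 0.384 RPKM after submergence, where they did not. BnaA04G0051800ZS was at 67.4, 64.4 and 35.9 against 87.7, 47.5 and 96.1 RPKM in controls and at 12.1, 11.2 and 11.8 against 5.78, 6.74 and 6.78 RPKM after submergence. Its submerged groups were tight and apart, and its control groups overlapped.

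The set was spread over all 19 chromosomes, with 86 genes on the A and 85 on the C subgenome, 50.3% on A against 50.6% of the genes of the control range and 48.7% of the tested genes that lie on A and C chromosomes. C03 held the most, 21 genes or 12.3% of the set, against 8.27% of those tested genes and 8.54% of the control range. Per gene of the control range, the share was highest on A10 with 1.91% and A04 with 1.89%, and lowest on A05 with 0.470% and A09 with 0.488%. Chromosomes were read from the identifiers and these shares were not tested.

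Neighbouring identifiers occurred in 4 places. The longest run was of 3 genes on C03, BnaC03G0379700ZS, BnaC03G0379800ZS and BnaC03G0379900ZS. BnaC03G0379700ZS was at 37.6, 16.5 and 41.0 RPKM in resistant and 12.4, 10.9 and 14.3 RPKM in susceptible controls, and BnaC03G0379800ZS at 55.7, 19.98 and 37.5 and at 25.0, 26.8 and 29.7 RPKM. For each of the 3 genes the second resistant control was the lowest of its group, and the change was deeper in the resistant than in the susceptible pool, -3.53 against -2.49 for BnaC03G0379700ZS and -3.38 against -2.62 for BnaC03G0379800ZS. On A06, BnaA06G0008500ZS and BnaA06G0008600ZS had nearly the same control mean, 95.5 and 96.9 RPKM, and mean changes of -3.84 and -3.77. If neighbours are near-identical copies, their reads may have been shared between them, which was not tested. BnaA02G0105900ZS, described above, adjoins BnaA02G0106000ZS, with a control mean of 12.6 RPKM and a mean change of -3.16. BnaC03G0252400ZS and BnaC03G0252500ZS had mean changes of -2.93 and -3.50.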

How the data were processed

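RNA of 12 libraries was used. The authors deposited RPKM values; HISAT2 and StringTie are named in the submitters' processing notes, and the sources used here give no version, setting, build or annotation. These values hold no counts and were not modelled as such; they were used as log2(RPKM + 1), with no scaling of libraries. A filter (1 RPKM or more in 3 or more libraries) left 57391 genes. limma (version 3.58.1, R 4.3.3) fitted 4 group means to the 12 libraries, leaving 8 residual degrees of freedom, with a prior variance that follows the mean level. Tests were 2-sided, adjusted after Benjamini and Hochberg over every gene tested, and called at 0.05. Tests of genes chosen on a pool used the 6 libraries of the other pool alone. On simulated data, the fit of 12 libraries recovered 74% of 2-fold and 99% of 4-fold pool differences. Fits of 6 libraries recovered 20% (susceptible) and 25% (resistant) of 2-fold responses, and 72% and 76% of 4-fold ones. False calls were 7 of 180, 5 of 97 and 5 of 106 calls. Each simulation changed 100 of 57391 genes 2-fold and 100 genes 4-fold. In the data far more were called, with 21.1% of tested genes higher and 8.93% lower for the averaged pool difference. The recovered shares and false calls therefore describe the simulation only. They are not the power or the error rate of the tests on the data. Plots used Python 3.11.15.

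The members, lists and tests were chosen with earlier results of these data known. Genes were named by a rule on the extremes of the set: 2 genes for each end of mean change, control level, pool difference (averaged, in controls, after submergence), gap between pools and spread, the longest run of neighbours, and the genes at the limit. The lists of named pathways and cell type markers were not used, as no identifier could be paired with a name.

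From the steps between low values, depth was estimated relative to the first resistant control, which was set to 1. The other libraries lay between 0.638 (the third resistant control) and 0.936 (the third resistant submerged library). Each estimate is rough, as it rests on the most frequent ratio, shared by 9 to 33 genes. No absolute depth is known, which leaves counting error without an interval. At least 99.5% of tested genes differed between any 2 libraries.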

Additional observations from a re-analysis of the deposited data

How the results depend on the processing

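The set numbered 171 genes, 244 with a pseudocount of 0.1, 160 with quantile normalization (153 shared), 114 with median ratio scaling (110 shared), 437 at a limit of -1.5 and 65 at a limit of -2.5. Without each library in turn it numbered 161 to 183. The median change was -2.91 and -2.95 in the resistant and susceptible pools with a pseudocount of 0.1, -2.32 in the resistant pool with median ratio scaling, and -2.67 to -2.48 and -2.72 to -2.58 without each library. Median ratio scaling moved the median change of all tested genes from -0.22 to -0.037 in the resistant and from -0.19 to 0.023 in the susceptible pool.

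Averaged over treatments, 31 genes were called above 0 (resistant minus susceptible), and 20 with median ratio scaling. Without each library 21 to 38 were higher and 15 to 22 lower. In controls, the 13 genes called higher and 12 called lower became 8 and 7 with a pseudocount of 0.1. They became 7 and 5 with only the libraries compared, and 5 were called lower without a filter. Without each library there were 5 to 22 higher and 1 to 14 lower in controls, and 8 to 23 and 2 to 13 after submergence. Genes chosen on the resistant pool and called lower in the susceptible one numbered 261, and 165 with median ratio scaling. For these other settings the shares over all tested genes were not taken, so the shifts cannot be assigned to the chosen genes. The causes were not tested.

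The replicate numbers showed no consistent pairing of the libraries. Correlations between same-numbered libraries ran from -0.34 to 0.39, and 5 of 18 were over 0.1. Of 12 libraries, 1 correlated best with its own number. With 3 libraries per group, this cannot show that pairing is absent. A replicate block gave 28 calls above and 22 below 0 averaged over treatments, 15 and 11 in controls and 17 and 13 after submergence. Shares over all tested genes were not taken with the block either.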

Other observations

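Deviations of the 171 genes from their group means were compared between libraries, which the rule did not use. Among the 16727 other genes of the control range, a first axis held 24.9% of the variance of such deviations, and sets of equal size were not compared. For the 171 genes the first axis held 33.8% (each gene scaled alike). The libraries highest on it were the second susceptible control (0.52), the second resistant control (0.39) and the third susceptible submerged library (0.27). Lowest were the third susceptible control (-0.48), the second susceptible submerged library (-0.33) and the first resistant control (-0.32). At a correlation of -0.7 or lower with this axis, chosen after seeing the data, were 40 genes, whose median was 56.5, 36.0 and 40.7 RPKM in the resistant and 35.9, 25.8 and 52.6 RPKM in the susceptible controls. At 0.7 or higher were 10 genes. Their controls had the reverse order, at 10.2, 26.8 and 16.5 RPKM and at 26.6, 32.4 and 13.9 RPKM. Choosing genes by the ends of the axis favours such an order. After submergence the order was again reversed in the resistant but not in the susceptible pool. The median change of both groups of genes was alike, -2.51 and -2.44 in the resistant and -2.65 and -2.62 in the susceptible pool. Over the whole set, the median deviation of a library ran from -0.20 log2 units in the second susceptible control to 0.20 in the first resistant control and the second susceptible submerged library. For the other genes of the range it ran from -0.046 to 0.060. Relative depth was 0.767 in the second susceptible control, with the first resistant control set to 1, and its part was not tested.

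The pair of genes whose deviations were most alike over the 12 libraries was BnaA08G0012300ZS and BnaC05G0170400ZS (r = 0.974, a description with no test). Both were weak and lay at the second end. BnaA10G0175100ZS and BnaA10G0175300ZS, close to each other on A10, had r = 0.969, whereas the neighbours BnaC03G0252400ZS and BnaC03G0252500ZS had r = -0.011.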
